A study of Homo sapiens with 12 samples.

Results

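The 10 genes studied here encode AP-1 and C/EBP transcription factors, and their RNA was followed in senescent human fibroblasts. They are FOS, FOSB, FOSL1 and FOSL2 of the FOS family, JUN, JUNB and JUND of the JUN family, and CEBPA, CEBPB and CEBPD of the C/EBP family. They were matched to the count table by symbol and make up 10 of the 57500 genes in the count table. The cells were MRC5, a human lung fibroblast line of embryonic origin, and the study used RNA sequencing to ask how senescence and the block of 2 mitochondrial carriers alter the transcriptome. There were 4 groups of 3 libraries. Prol libraries came from proliferating cells, and Sen(IR) libraries from cells that an X-ray dose of 20 Gy had driven into senescence. Sen(IR+UK5099) cells received the same irradiation and 100 μM UK5099, an inhibitor of the mitochondrial pyruvate carrier. Sen(IR+CTPI2) cells received the same irradiation and CTPI2, an inhibitor of the citrate carrier SLC25A1. The methods name 15 and 30 μM as doses of CTPI2, and which of them was sequenced is not given in the sources used here. Inhibitors were added 1 day after irradiation, and by the methods they stayed in the medium for 12 days with repeated renewal. Collection of irradiated cells is stated as 10 to 12 days after irradiation. A vehicle for Sen(IR) is not given, and all libraries come from 1 cell line. The study's legends speak of independent conditions or experiments for its RNA sequencing, while the labels do not say whether the libraries of a group are separate cultures. P-values measure the spread between these libraries.

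AP-1 is a dimer of basic leucine zipper proteins, usually a FOS protein with a JUN protein, and it binds short DNA sites in the promoters and enhancers of growth, stress and matrix-remodelling genes. FOS proteins cannot pair with each other, whereas JUN proteins can form dimers on their own. C/EBP proteins belong to the same superfamily, and CEBPB and CEBPD are known in fibroblasts as inducible regulators of inflammatory and acute-phase genes. Several of these genes are immediate-early genes, whose transcription responds to MAP kinases within minutes of a stimulus and whose RNA is short-lived.

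Levels are given as CPM, read counts made comparable between libraries by dividing by the library's total and its TMM scaling factor, which ran from 0.953 to 1.05. Library totals ran from 20597736 to 28245693 counts. A difference is a log2 fold change fitted by edgeR over all 12 libraries, with its SE, and a gene was called when its Benjamini-Hochberg adjusted p over the 16251 genes tested was under 0.05 and its absolute log2 fold change over 0.5. The group labels were checked on CDKN1A, the cell-cycle inhibitor p21, at a mean of 315 CPM in Prol and 1055 to 1098 CPM in the irradiated groups. They were also checked on the proliferation gene MKI67, at 235 CPM in Prol and 0.950 to 12.5 CPM in the irradiated groups. The irradiated groups were not alike in MKI67, whose log2 fold change against Prol was -4.42 in Sen(IR) and -7.96 with UK5099. The part of this difference in the results was not tested. Defining markers of leukocytes summed to at most 0.80 CPM in any library and those of epithelium to at most 1.45 CPM. The summed level of the 5 endothelial markers in CPM was 157 to 206 in the Prol libraries, 356 to 367 for Sen(IR), 207 to 237 after UK5099 and 300.03 to 330 after CTPI2. Nearly all of that was TEK, an angiopoietin receptor, whose mean was 172, 360.1, 218 and 313 CPM in the same order. TEK rose by 1.06 in Sen(IR) against Prol and fell by 0.73 with UK5099, KDR (VEGF receptor) fell by 2.13 and 1.78, and the defining markers PECAM1 and CDH5 were at or under 0.351 CPM in every library. The part of these markers in the results was not tested. Fibroblast markers were present throughout, but their summed level was 10908 to 11400 CPM with UK5099 against 20693 to 21279 CPM in Sen(IR). The markers did not move as 1 set, and of the 10, 6 were called lower in that comparison and 4 were not called. Against Prol, COL1A1 was at -0.50 in Sen(IR) and -2.06 with UK5099. By contrast, DCN was at -0.11 in both, and PDGFRB at -0.42 and -0.37. In bulk RNA, fewer cells of a type and less RNA per cell cannot be told apart.

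Sen(IR) cells held less FOS and FOSL1 RNA and more FOSB RNA than Prol cells, and the other members tested were within a log2 fold change of 0.5 in that comparison. Of the 9 members tested, 1 was called higher and 2 lower in Sen(IR) against Prol. There 47.2% of all genes tested were called (24.8% higher and 22.4% lower), so the share of members called was not above the background. The groups did not overlap for 7 of the 9, against 70.9% of all genes. With UK5099 against Sen(IR), 5 of the 9 were called lower, namely FOS, FOSB, FOSL1, JUNB and CEBPB, and 0 were called higher. Over all genes tested, 20.8% were called in this comparison, 12.1% lower and 8.76% higher. The median log2 fold change of the 9 was -0.74, against 0.01 over all genes. The members were chosen with earlier results of these data known, which limits this comparison. The groups did not overlap for 8 of the 9, against 56.6% of all genes. With CTPI2, edgeR called 0 of the 9, DESeq2 also called 0, and 2 had an unadjusted p under 0.05. In that comparison 0.166% of all genes were called (0.0185% higher and 0.148% lower), and the groups did not overlap for 2 of the 9, against 15.1% of all genes. Set directly against CTPI2, UK5099 gave 4 lower members and 1 higher, against 19.9% of all genes called (11.7% lower and 8.2% higher), and the groups did not overlap for 6 of the 9, against 53.6%. Against Prol, UK5099 gave 2 higher and 3 lower members where 53.1% of all genes were called (26.9% higher and 26.2% lower), and no overlap for 7 members against 74.5% of genes. CTPI2 gave 0 higher and 2 lower members against Prol where 46.8% were called (24.8% higher and 21.9% lower), and no overlap for 6 members against 70.1% of genes. The 3 Sen(IR) libraries serve as controls for both inhibitors, so the values against Sen(IR) are given side by side and not compared by overlap.

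**Figure D1:**
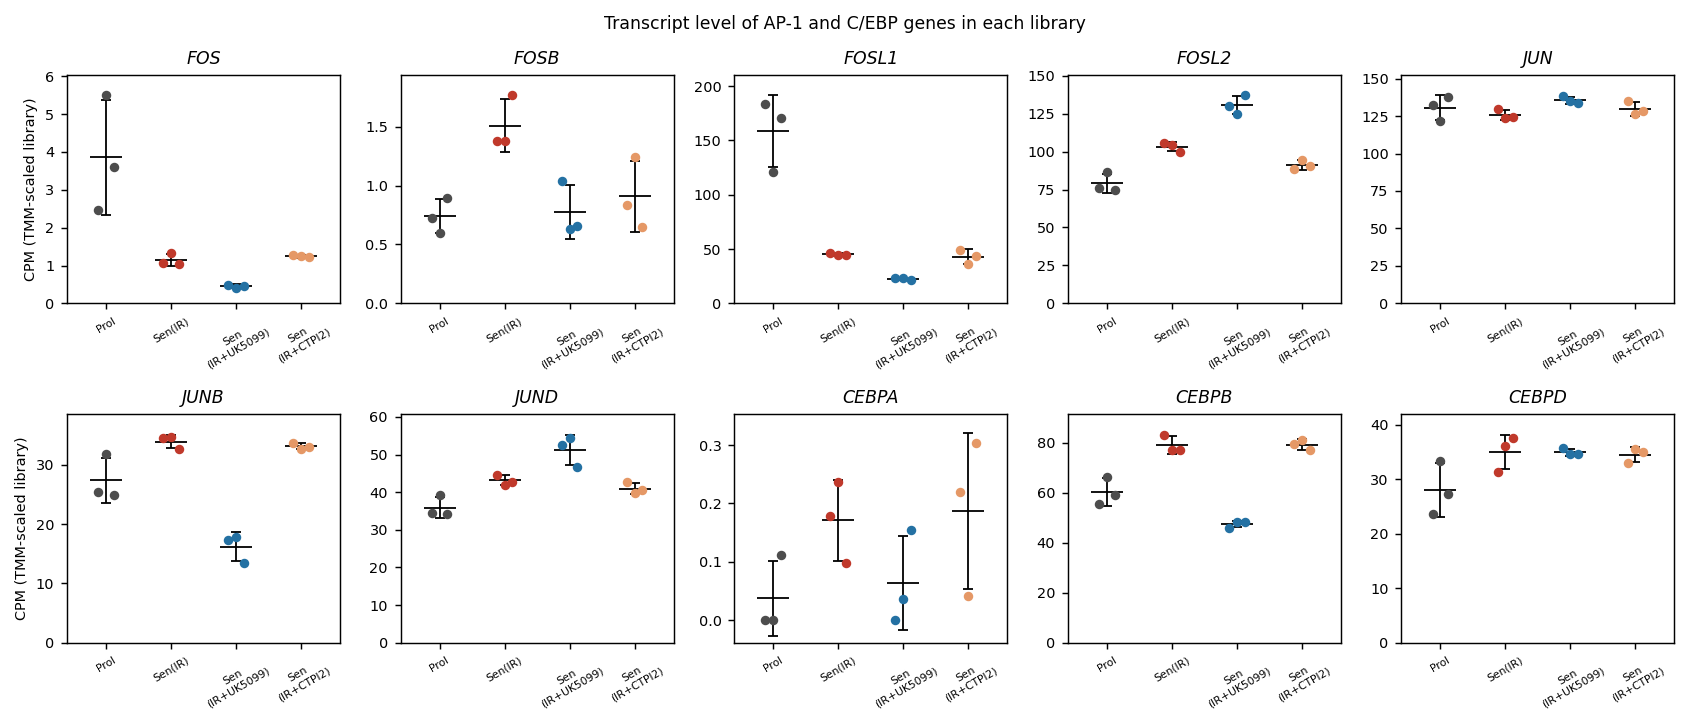
Level of each of the 10 genes in every library, in CPM of the TMM-scaled library on a linear axis. Points are libraries, the horizontal bar is the group mean and the whiskers are 1 SD (n = 3). FOS, FOSL1, JUNB and CEBPB were lower in all 3 Sen(IR+UK5099) libraries than in any other library, and FOSL2 was higher there than in any other library.

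The starts of 6 members are shown because the members differed in what stands just before them. Each line gives the 140 bases before the transcription start listed by RefSeq (GRCh38.p14), on the strand of the gene, with capitals for the TATA box motif TATAAA and for TGACG, the core of the cAMP response element, which reads CGTCA from the other strand. The positions are chr14:75278688-75278827 on the plus strand for FOS, chr19:45467856-45467995 (plus) for FOSB, chr19:12791346-12791485 (plus) for JUNB and chr20:50190690-50190829 (plus) for CEBPB. They are chr1:58784048-58784187 (minus) for JUN and chr19:18281623-18281762 (minus) for JUND.
FOS: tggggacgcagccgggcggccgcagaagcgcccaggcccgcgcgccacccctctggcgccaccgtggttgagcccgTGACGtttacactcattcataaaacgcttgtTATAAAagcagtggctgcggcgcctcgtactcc
FOSB: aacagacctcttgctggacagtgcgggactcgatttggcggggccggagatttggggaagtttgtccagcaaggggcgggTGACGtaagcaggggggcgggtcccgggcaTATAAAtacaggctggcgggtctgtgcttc
JUNB: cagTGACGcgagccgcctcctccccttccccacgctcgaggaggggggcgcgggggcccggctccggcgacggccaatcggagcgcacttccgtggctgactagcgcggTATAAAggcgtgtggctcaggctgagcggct
CEBPB: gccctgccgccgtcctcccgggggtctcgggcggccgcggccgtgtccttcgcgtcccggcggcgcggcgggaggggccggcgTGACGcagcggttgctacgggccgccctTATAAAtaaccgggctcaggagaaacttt
JUN: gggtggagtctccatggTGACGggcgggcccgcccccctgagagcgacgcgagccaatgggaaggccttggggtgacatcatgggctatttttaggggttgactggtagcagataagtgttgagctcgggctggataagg
JUND: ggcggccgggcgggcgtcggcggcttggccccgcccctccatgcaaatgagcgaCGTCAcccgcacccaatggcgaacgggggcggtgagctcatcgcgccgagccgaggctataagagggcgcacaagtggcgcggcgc

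Promoters were searched for 8 members, on both strands, over 250 bases before to 50 after the start. FOSL1 and CEBPD had no entry. For FOSL2 the whole window (chr2:28392608-28392907) lies inside the gene as placed by GENCODE, which begins at 28392448. The bases before that GENCODE start were not searched. TATAAA stood in the promoters of FOS, FOSB, JUNB, CEBPB and CEBPA, beginning 29 to 33 bases before the start, and in 8.93% of the 10987 tested genes with a promoter entry. CEBPB has a second listed start upstream of the first, and that promoter held no TATAAA. The 4 measured members with TATAAA (FOS, FOSB, JUNB and CEBPB) were those called lower with UK5099 among the 7 measured members with an entry. Over all tested genes with an entry, 20.8% of those with TATAAA and 11.1% of those without were called lower in that comparison. JUN and JUND had no TATAAA and were not called. FOSL2 was not called either and had no TATAAA in its window, but that window leaves out the bases before its GENCODE start. FOSL1, which was also called lower, could not be scored, and the FOSB call was lost in some fits with 1 library left out. The shorter letters TATAA, which overlap TATAAA, were also found in JUND, 29 bases before its start, and in 16.1% of tested genes. TGACG stood in 7 of the 8 promoters, all but CEBPA, against 39.9% of tested genes. Full AP-1 letters (TGACTCA or TGAGTCA) were found only in FOSL2, 4 bases after its start, and the full element TGACGTCA only in JUND, where it begins at position -200 from the start and contains TGACG on both strands. Among tested genes these stood in 5.14% and 3.77%. Within this window, the C/EBP letters TTGCGCAA or TTGCGAAA (0.564% of tested genes) and the serum response element (1.62%) were found in 0 of the 8 promoters. An NF-kB site was found in CEBPB only (17.3%). Sites more than 250 bases before the start were not searched, so a gene may hold an element that these counts miss. CCAAT was found in 4 of the 8 (42.9% of tested genes) and the GC box GGGCGG in 7 (75.7%). These matches are letters in a window and are given as a description.

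FOS, the founding immediate-early partner of JUN, lies at chr14:75278826-75282230 on GRCh38 with 4 exons. Its level was 2.47, 5.50 and 3.61 CPM in Prol, 1.07, 1.33 and 1.03 CPM in Sen(IR), 0.497, 0.408 and 0.465 CPM in Sen(IR+UK5099), and 1.27, 1.24 and 1.21 CPM in Sen(IR+CTPI2). The 3 Prol libraries were the highest, with replicate 2 above the others, the 3 UK5099 libraries were the lowest, and the Sen(IR) and CTPI2 libraries overlapped. FOS fell by 1.75 on the log2 scale in Sen(IR) against Prol (SE 0.27, adjusted p 4.64e-06). It fell further with UK5099, by 1.32 against Sen(IR) (SE 0.36, adjusted p 0.00454). These values rest on 11 to 12 counts per UK5099 library and 21 to 28 counts per Sen(IR) library. The difference with CTPI2 was 0.12, with a 95% interval of -0.52 to 0.76, which is too wide to exclude a change past the limit of 0.5 in either direction.

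FOSB, whose gene also gives a shorter protein that gene counts cannot tell apart, lies at chr19:45467995-45475179 with 4 exons. It was measured at 0.725, 0.601 and 0.892 CPM in Prol, 1.38, 1.37 and 1.77 CPM in Sen(IR), 1.03, 0.630 and 0.659 CPM in Sen(IR+UK5099) and 0.833, 1.24 and 0.649 CPM with CTPI2. The Sen(IR) libraries were above all others, and the remaining 3 groups overlapped. FOSB was the only member called higher in Sen(IR) against Prol, with a log2 fold change of 1.01 (SE 0.32, adjusted p 0.00789). It fell by 0.96 with UK5099 (SE 0.32, adjusted p 0.0165), a call that was lost without Sen(IR) replicate 3 (adjusted p 0.0703), Sen(IR+UK5099) replicate 2 (0.0639) or Sen(IR+UK5099) replicate 3 (0.0605). With CTPI2 the log2 fold change was -0.72 at an unadjusted p of 0.0312 and an adjusted p of 0.617. Against each other the inhibitors gave -0.24 (95% interval -0.93 to 0.45), so a difference between them was not detectable at 14 to 36 counts per library.

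FOSL1 (FRA-1), a FOS protein without the strong activation region of FOS, lies at chr11:65892049-65900573 with 4 exons. Its level was 184, 121 and 170.5 CPM in Prol, 46.4, 44.2 and 44.9 CPM in Sen(IR), 23.1, 23.3 and 21.6 CPM in Sen(IR+UK5099), and 49.6, 36.4 and 43.5 CPM with CTPI2. Prol replicate 2 was low for its group but still above every irradiated library. FOSL1 had the largest change of the members in Sen(IR) against Prol, a fall by 1.81 on the log2 scale (SE 0.11, adjusted p 2.48e-12), or 3.51-fold. UK5099 lowered it again, with a log2 fold change of -0.996 (SE 0.12, adjusted p 6.41e-07), and against Prol the UK5099 libraries fell by 2.81 (SE 0.12, adjusted p 1.83e-15). With CTPI2 its log2 fold change was -0.07 (95% interval -0.31 to 0.18), an interval that does not reach the limit of 0.5.

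FOSL2 (FRA-2), the closest relative of FOSL1, lies at chr2:28392448-28417317 with 4 exons and moved the other way. It was at 76.1, 86.5 and 74.8 CPM in Prol, 106, 104 and 99.8 CPM in Sen(IR), 129.9, 125 and 137 CPM in Sen(IR+UK5099), and 88.6, 94.6 and 90.4 CPM with CTPI2. No library of any group overlapped another group. Its differences exceeded the spread between replicates without reaching the limit of 0.5 in Sen(IR) against Prol (log2 fold change 0.39, SE 0.06, adjusted p 5.81e-06) and with UK5099 against Sen(IR) (0.34, SE 0.06, adjusted p 5.80e-05). With CTPI2 the value was -0.18 (unadjusted p 0.00642, adjusted p 0.351). FOSL2 was called higher in UK5099 than in CTPI2, at 0.52 (SE 0.06, adjusted p 2.37e-07), although this passed the limit narrowly and dropped to 0.499 without Sen(IR+CTPI2) replicate 1 and to 0.48 without Sen(IR+UK5099) replicate 3. Against Prol, UK5099 cells held more FOSL2, with a log2 fold change of 0.72 (SE 0.06, adjusted p 2.19e-10).

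**Figure D2:**
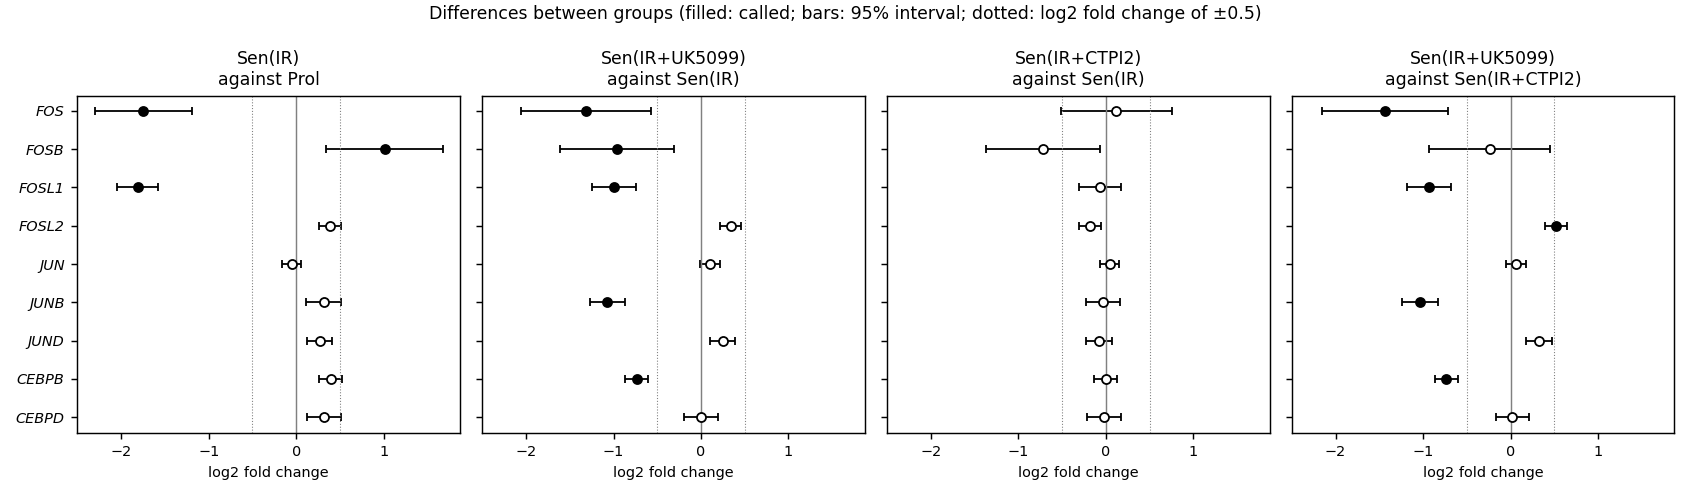
Log2 fold changes of the 9 members tested in 4 comparisons, the first-named group against the second, with 95% intervals from edgeR. Filled points were called. UK5099 gave 5 filled points below 0 against Sen(IR), CTPI2 gave 0 filled points, and FOSL2 alone was filled above 0 in UK5099 against CTPI2.

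JUN, the main partner of FOS proteins and a target of the stress kinase JNK, is a gene with 1 exon at chr1:58776845-58784048. It held 132, 121 and 138 CPM in Prol, 129.9, 124 and 125 CPM in Sen(IR), 138, 135 and 134 CPM in Sen(IR+UK5099), and 135, 127 and 128 CPM with CTPI2. The groups lay close together, with the UK5099 libraries above the Sen(IR) libraries. Its log2 fold change was -0.05 in Sen(IR) against Prol (95% interval -0.16 to 0.06), 0.11 with UK5099 (-0.01 to 0.22, adjusted p 0.116) and 0.04 with CTPI2 (-0.07 to 0.16). All 3 intervals stayed within the limit of 0.5.

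JUNB, a JUN protein with weaker activation that can restrain JUN, lies at chr19:12791486-12793315 with 1 exon. Of its exon bases, 14.2% also belong to HOOK2 on the opposite strand, and whether the libraries kept strand is not stated. Its level was 25.4, 31.8 and 24.9 CPM in Prol, 34.5, 34.7 and 32.6 CPM in Sen(IR), 17.3, 17.9 and 13.4 CPM in Sen(IR+UK5099), and 33.7, 32.8 and 33.0 CPM with CTPI2. The 3 UK5099 libraries were below all 9 others. JUNB fell by 1.07 on the log2 scale with UK5099 against Sen(IR) (SE 0.10, adjusted p 8.48e-09) and by 1.03 against CTPI2 (SE 0.10, adjusted p 1.49e-08). The same libraries stood below the proliferating ones, by 0.76 (SE 0.10, adjusted p 4.55e-07). In Sen(IR) against Prol the value of 0.31 (SE 0.09, adjusted p 0.00586) was under the limit, and with CTPI2 it was -0.03 (95% interval -0.23 to 0.16).

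JUND, the JUN family member usually present in resting cells, lies at chr19:18279694-18281622 with 1 exon. It was at 34.4, 39.1 and 34.1 CPM in Prol, 44.6, 42.0 and 42.8 CPM in Sen(IR), 52.7, 54.4 and 46.7 CPM in Sen(IR+UK5099) and 42.7, 39.7 and 40.5 CPM with CTPI2. The order of the groups was that of FOSL2, with UK5099 highest and Prol lowest. The log2 fold changes of 0.27 in Sen(IR) against Prol (SE 0.07, adjusted p 0.00213) and 0.25 with UK5099 against Sen(IR) (SE 0.07, adjusted p 0.00547) exceeded the spread between replicates and stayed under the limit. Against Prol, UK5099 gave 0.52 (SE 0.07, adjusted p 7.11e-07), a call that was lost when Prol replicate 1 (0.488), Prol replicate 3 (0.481), Sen(IR+UK5099) replicate 1 (0.497) or Sen(IR+UK5099) replicate 2 (0.471) was left out.

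CEBPB, which drives interleukin and acute-phase genes and makes activating and inhibitory proteins from the same RNA, lies at chr20:50190830-50192668 with 1 exon. Of its exon bases, 12.6% are shared with the opposite-strand gene CEBPB-AS1. Its level was 55.4, 66.4 and 59.1 CPM in Prol, 83.2, 77.2 and 77.1 CPM in Sen(IR), 46.0, 48.3 and 48.3 CPM in Sen(IR+UK5099), and 79.4, 81.2 and 76.9 CPM with CTPI2. Sen(IR) and CTPI2 libraries were the highest and overlapped, and UK5099 libraries were the lowest. CEBPB fell by 0.74 on the log2 scale with UK5099 against Sen(IR) (SE 0.06, adjusted p 2.89e-09), or 1.67-fold, and by the same 0.74 against CTPI2 (SE 0.06, adjusted p 3.18e-09). In Sen(IR) against Prol it was higher by 0.39 (SE 0.06, adjusted p 9.15e-06), under the limit. With CTPI2 the value was -0.0006, with an interval of -0.13 to 0.13.

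CEBPD, an inducible C/EBP protein of the acute-phase response, lies at chr8:47736913-47738164 with 1 exon. It held 23.6, 33.3 and 27.3 CPM in Prol, 31.4, 36.1 and 37.5 CPM in Sen(IR), 35.7, 34.6 and 34.6 CPM in Sen(IR+UK5099) and 33.0, 35.5 and 35.1 CPM with CTPI2. The 3 irradiated groups overlapped. Its log2 fold change was 0.32 in Sen(IR) against Prol (SE 0.09, adjusted p 0.00452), under the limit, and -0.001 with UK5099 (95% interval -0.19 to 0.19). CEBPA, the C/EBP factor of fat, liver and myeloid differentiation, was at or near 0. Its counts were 0, 0 and 3 in Prol, 4, 5 and 2 in Sen(IR), 0, 1 and 4 with UK5099 and 5, 1 and 7 with CTPI2. It did not pass the filter on low counts and was not tested, and 43.9% of its exon bases at chr19:33299934-33302534 are shared with opposite-strand genes.

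Per kilobase of exon, the order of the members changed between groups. In Prol the order of mean levels was FOSL1 (84.0 CPM per kb), JUN (36.0), CEBPB (32.8), CEBPD (22.4), JUND (18.6), JUNB (14.96), FOSL2 (11.05), FOS (1.21) and FOSB (0.133). The ranges of JUN and CEBPB overlapped there, as did those of CEBPD and JUND. In Sen(IR) CEBPB led at 43.1 CPM per kb, followed by JUN (34.8), CEBPD (27.97), FOSL1 (23.9), JUND (22.4), JUNB (18.5), FOSL2 (14.4), FOS (0.358) and FOSB (0.271), with no overlap between neighbours. With UK5099 JUN led at 37.4 CPM per kb, and CEBPD (27.9), JUND (26.6) and CEBPB (25.8) followed, of which JUND overlapped both of the others. Next came FOSL2 (18.2), FOSL1 (11.4 to 12.3 in the libraries) and JUNB (8.84), with FOS (0.143) and FOSB (0.140) overlapping at the bottom. With CTPI2 the order of means was that of Sen(IR).

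The FOS family was dominated by FOSL1 and FOSL2 in every library, and their balance turned with UK5099. FOSL1 made up 86.7% ± 3.94 (SD, n = 3) of the family sum per kb in Prol, 61.4% ± 0.68 in Sen(IR), 39.3% ± 2.04 with UK5099 and 63.0% ± 4.44 with CTPI2. FOSL2 held 11.8% ± 3.17, 37.0% ± 0.65, 59.7% ± 2.05 and 35.5% ± 4.20 in the same order of groups. FOSL2 exceeded FOSL1 per kb in 3 of 3 UK5099 libraries, with ratios of 1.48, 1.41 and 1.67, and in 0 of 3 libraries of each other group, where the ratio was 0.109 to 0.188 in Prol, 0.586 to 0.620 in Sen(IR) and 0.471 to 0.685 with CTPI2. FOS, the best known member, held 0.469 to 1.34% of the family sum on average. The family sum itself was 96.4 ± 16.2 CPM per kb in Prol, 39.0 ± 0.84 in Sen(IR), 30.5 ± 0.42 with UK5099 and 36.1 ± 3.05 with CTPI2.

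The JUN family sum varied less between groups, at 69.6 ± 1.49 CPM per kb in Prol, 75.7 ± 1.85 in Sen(IR), 72.8 ± 3.81 with UK5099 and 75.2 ± 2.34 with CTPI2. The ratio of FOS family to JUN family RNA was 1.39 ± 0.26 in Prol, 0.515 ± 0.002 in Sen(IR), 0.420 ± 0.03 with UK5099 and 0.480 ± 0.03 with CTPI2. Within the JUN family, JUNB held 24.5% ± 0.75 in Sen(IR) and 12.1% ± 1.22 with UK5099, and JUND 29.5% ± 0.39 and 36.5% ± 1.05. JUN kept 46.0% ± 0.36 and 51.4% ± 2.24 in these groups. In the C/EBP family, CEBPB held 60.6% ± 3.23 of the sum in Sen(IR) and 60.9% ± 1.14 with CTPI2, and CEBPD 39.3% ± 3.24 and 39.0% ± 1.12. With UK5099 CEBPD was the larger, at 51.9% ± 1.18 against 48.0% ± 1.14 for CEBPB, in 3 of 3 libraries. The sum of this family was 55.2 ± 6.95 CPM per kb in Prol, 71.1 ± 0.78 in Sen(IR), 53.8 ± 0.26 with UK5099 and 70.7 ± 1.58 with CTPI2. These shares are of RNA and carry no test.

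**Figure D3:**
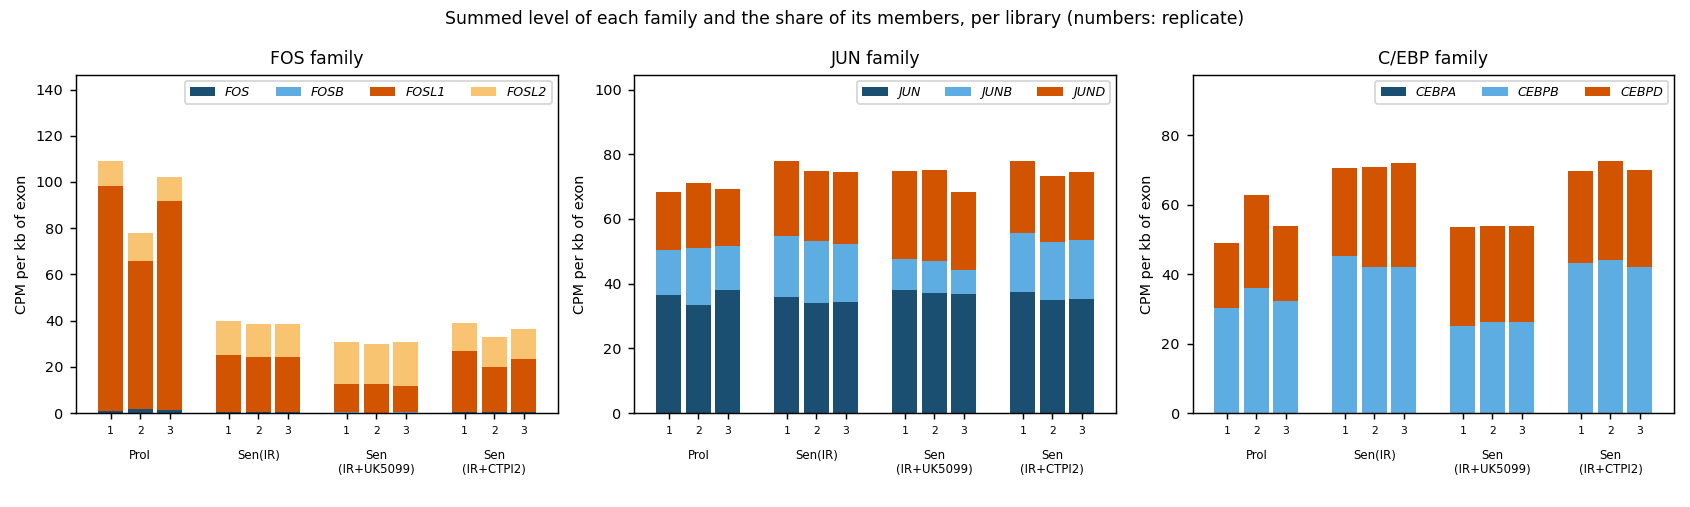
Stacked levels of the FOS, JUN and C/EBP family members in each of the 12 libraries, in CPM per kb of merged exon length on linear axes from 0. Bars 1 to 3 of each group are the replicates. FOSL2 exceeded FOSL1 in the 3 UK5099 libraries only, and JUNB and CEBPB took smaller shares there.

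Prol replicate 2 was extreme within its group for all 9 members tested, highest for FOS, FOSL2, JUNB, JUND, CEBPB and CEBPD and lowest for FOSB, FOSL1 and JUN. With this library or any other of the 6 left out, 3 members were still called in Sen(IR) against Prol. Among the members, levels as log2(CPM + 1) over the 12 libraries ran most closely together for JUNB and CEBPB (Pearson r 0.93), FOSL2 and JUND (0.92), and FOS and FOSL1 (0.90), and most oppositely for FOSL1 and FOSL2 (-0.90). These 12 points fall into 4 groups that share their treatment, and the r values are descriptions.

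Partners and upstream genes were examined with lists of other genes, where the numbers that rose or fell are of called genes. Over all genes tested, 24.8% were called higher and 22.4% lower in Sen(IR) against Prol. With UK5099 against Sen(IR) these shares were 8.76% and 12.1%, and with CTPI2 0.0185% and 0.148%. No list here or in the next paragraphs was tested as a set against these shares, and the lists were chosen with earlier results of these data known. Of 11 tested partner factors that pair with AP-1 proteins, 4 rose and 1 fell in Sen(IR) against Prol, with a median log2 fold change of 0.07. With UK5099, 0 rose and 3 fell (median -0.10), and with CTPI2 edgeR called 0, with 0 at an unadjusted p under 0.05. ATF3, a stress-induced JUN partner, rose by 1.57 in Sen(IR), from 14.0 ± 0.50 to 41.6 ± 0.66 CPM, and fell by 1.004 with UK5099, to 20.8 ± 0.52 CPM. MAFF, a small MAF protein without an activation region, fell by 1.41 with UK5099, and the low-count gene BATF2 fell by 1.501 (11 to 29 counts per UK5099 library). Of 6 genes that pair with C/EBP proteins or direct their degradation, 3 fell with UK5099 and 0 rose (median -0.47). They were CEBPG, a C/EBP protein without an activation region (-0.57), and TRIB1 (-0.78) and TRIB3 (-0.82). TRIB1 is an adaptor that brings C/EBP proteins to a ubiquitin ligase. In Sen(IR) against Prol, CEBPG fell by 0.85 and the other 5 were not called.

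The MAP kinase cascade activates AP-1 by phosphorylation. Of its 24 genes on the list, 2 rose and 4 fell in Sen(IR) against Prol (median 0.04), and 2 rose and 1 fell with UK5099 (median 0.06). ERK1 (MAPK3) rose by 1.17 in Sen(IR), and the stress kinase MAPK11 by 1.30. The largest called falls in that comparison were MAP2K6 (-1.02, with overlapping groups) and MAP3K1 (-0.93). With UK5099 the apoptosis signal kinase MAP3K5 fell by 0.81. Dual-specificity phosphatases and Sprouty proteins are feedback inhibitors that MAP kinase signalling induces. Of 15 tested, 1 rose and 7 fell in Sen(IR) against Prol (median -0.42), and 2 rose and 4 fell with UK5099 (median -0.25). SPRY1 fell by 1.56 in Sen(IR) and by 1.02 with UK5099, SPRY4 by 1.20 and DUSP4 by 1.01 with UK5099, whereas DUSP8 rose by 1.04. Of 6 genes for serum response factor and its cofactors, which drive FOS transcription, 3 fell in Sen(IR) against Prol (SRF -1.08, ELK3 -0.82, ELK4 -0.64). With UK5099 edgeR called 0 of the 6, with 4 at an unadjusted p under 0.05 (median 0.12).

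Other immediate-early genes moved in both directions in Sen(IR). Of 18 tested, 6 rose and 10 fell in Sen(IR) against Prol (median -0.63). KLF2 (-2.39) and EGR1 (-1.90) fell, and BTG2 (1.93) and NR4A2 (1.76) rose. With UK5099, 1 rose and 9 fell (median -0.55), the largest falls being EGR2 (-4.08, at 4, 2 and 1 counts), IER3 (-2.35), EGR3 (-2.17) and NR4A2 (-2.08). IER3 went from 120.2 ± 3.54 to 23.6 ± 1.67 CPM. The gene that rose was ZFP36 (0.97), chosen after its value was seen, which encodes a protein that speeds decay of AU-rich RNA. Over all genes tested the median log2 fold change was 0.01 in both comparisons. With CTPI2, edgeR called 0 of the 18, with 7 at an unadjusted p under 0.05 (median -0.14).

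Genes taught as AP-1 or C/EBP targets were listed without evidence of binding in these cells. Of 14 AP-1 targets, 10 rose and 2 fell in Sen(IR) against Prol (median 0.96), and 1 rose and 9 fell with UK5099 (median -1.90). PLAU encodes urokinase, an activator of plasminogen, and its level of 1626 ± 36.2 CPM in Sen(IR) compared with 120.3 ± 14.4 CPM after UK5099 (log2 fold change -3.76). The chemokine CXCL8 (-8.19), IL6 (-6.61) and CCL2 (-6.29) fell more, and heme oxygenase HMOX1 rose by 2.19, chosen after its value was seen. With CTPI2, 0 rose and 3 fell (CXCL8 -1.08, IL6 -0.89, IL11 -0.67). Of 7 tested C/EBP targets, 6 rose and 0 fell in Sen(IR), and 1 rose and 5 fell with UK5099. Complement C3 went from 1.53 ± 0.33 CPM in Prol to 484 ± 10.6 in Sen(IR), 0.660 ± 0.08 with UK5099 and 316 ± 9.47 with CTPI2, where it fell by 0.61. PTX3, an acute-phase pentraxin, fell by 4.27 with UK5099. The colony factor CSF3 and the serum amyloid gene SAA2 had 0 counts in all 3 UK5099 libraries and were at least 7.81-fold and 7.50-fold lower than in Sen(IR), against a floor of 3 counts per library. The median of this list was -4.27 as fitted and -2.96 with 3 genes set to their bounds. SAA1, the third, is nearly identical in sequence to SAA2. Only unique reads were counted, so reads that match both would be left out and both genes may be undercounted. Fibroblast markers also moved with UK5099, 6 of 10 lower and 0 higher (median -0.85), and their part in these results was not tested.

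**Figure D4:**
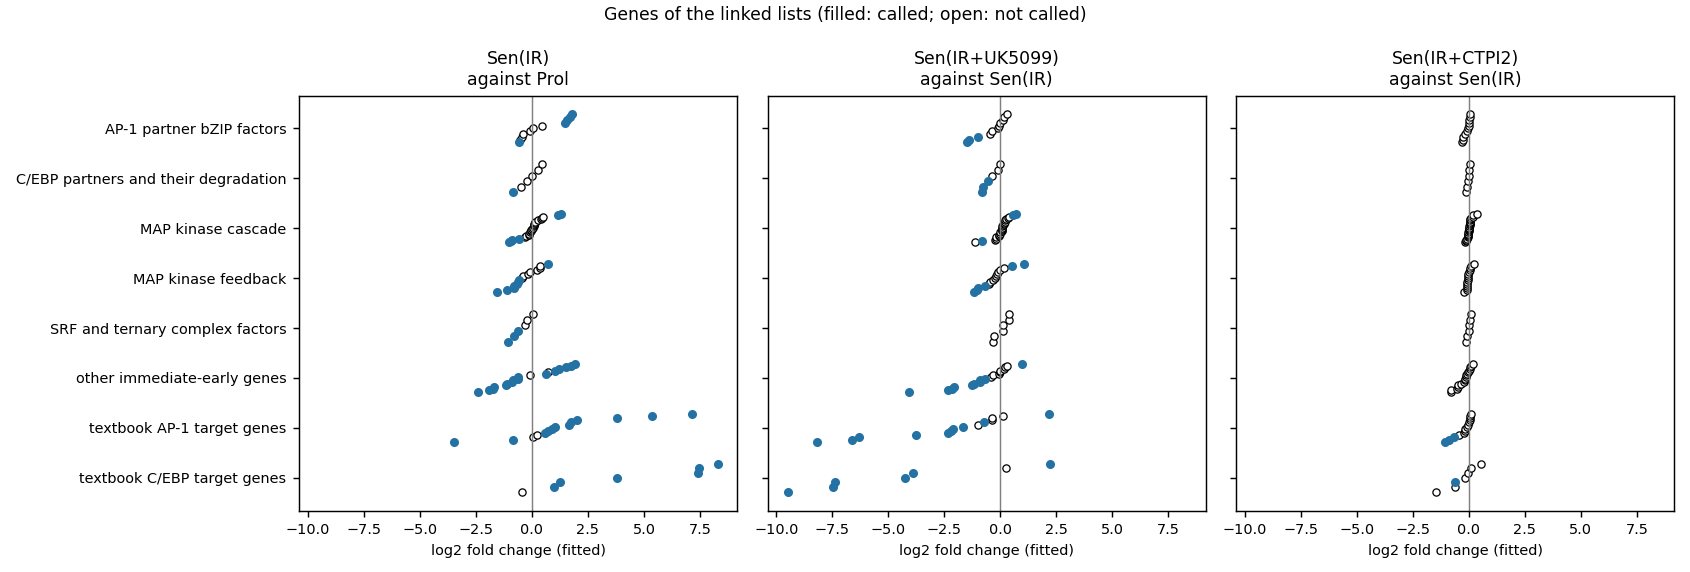
Fitted log2 fold changes of the genes in 8 lists linked to AP-1 and C/EBP in Sen(IR) against Prol and with each inhibitor against Sen(IR), on shared axes. Each point is a gene, ordered by value within its list, and filled points were called. The immediate-early and target lists spread to negative values with UK5099, and 4 points in all were filled with CTPI2.

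The genes whose levels ran most like each member over the 12 libraries were found among 13448 tested genes with a mean of at least 1 CPM, by Pearson r of log2(CPM + 1). For FOS they were PLPP3 (0.99), MEST (0.99) and RIPOR2 (0.98), and for FOSL1 they were DKK1, NUDT1 and CTNNAL1 (0.99 to 1.00). FOSL2 ran with ANKMY2 (0.98), SMO (0.97) and SLC38A2 (0.97), and JUND with RANBP10 (0.97), ARVCF (0.96) and NBPF11 (0.95). JUNB was matched most closely by ACVRL1 (0.98), PODN (0.97) and ERAP1 (0.97), and CEBPB by ITGBL1, ADD3 and NRG1 (0.99 each). For JUN and CEBPD the best matches were looser, with HSD3B7 (0.88), DNAJB1 (0.83) and CRK (0.82) for JUN, and EHD3, ITGB8 and FOXA1 (0.92 to 0.93) for CEBPD. FOSB had a mean under 1 CPM and was left out. DKK1, for example, had mean levels of 106 CPM in Prol, 26.4 in Sen(IR), 10.7 with UK5099 and 23.7 with CTPI2, the order of FOSL1. The r values are descriptions over libraries that share their groups.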

How the data were processed

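RNA of 12 libraries in 4 groups of 3 was measured. The authors trimmed the reads (Trimmomatic 0.36), mapped them on GRCh38 (STAR 2.5.2b) and counted unique reads in exons per gene (featureCounts, Subread 1.5.2). The deposited values are raw counts without normalization, and whether strand was kept is not stated. Of the columns, 0 belonged to other samples. The whole table was fitted with edgeR 4.0.16 under R 4.3.3, using filterByExpr, TMM and the quasi-likelihood test, in 1 fit of the 4 groups with no replicate term. P-values were adjusted by Benjamini-Hochberg. Calls needed an adjusted p under 0.05 together with an absolute log2 fold change over 0.5. Each SE is the size of the log2 fold change divided by the square root of F. The fit was tested on simulated counts. Depth was 20597736 to 28245693 counts per library, where 3 counts equal 0.117 to 0.141 CPM on average over a group, which limits FOS, FOSB and CEBPA most, and intervals cover these libraries only.

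The 10 members and the gene lists were chosen with earlier results of these data known. Genes named are all members, up to 4 called genes with the largest change per list and comparison, the 3 genes most like each member, and check genes. Positions and merged exon lengths came from GENCODE v44 on GRCh38, promoters from RefSeq. Searches for the CCAAT and GC boxes, the core of the cAMP response element and the shorter TATA letters were added after the other motifs had been seen. The alternatives tried were DESeq2 1.42.0, scaling by RLE or by upper quartile, no filter on low counts, fits of only the 2 groups compared, a replicate block, other call limits, the longest transcript as gene length, and each library left out in turn.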

Additional observations from a re-analysis of the deposited data

How the results depend on the processing

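The number of members called was 3, 5, 0 and 5 in Sen(IR) against Prol, UK5099 against Sen(IR), CTPI2 against Sen(IR) and UK5099 against CTPI2, and 5 and 2 for UK5099 and CTPI2 against Prol. DESeq2 gave the same numbers. Upper-quartile scaling moved the median of all genes by 0.12 in Sen(IR) against Prol, which raised the 3 to 5 (FOSL2 and CEBPB at 0.51, or 0.37 and 0.38 relative to that median) and turned JUN to 0.0703. It also put CEBPB at 0.50 and JUN at 0.11 in CTPI2 against Prol, and CEBPD at 0.0176 in UK5099 against Sen(IR). JUN in CTPI2 against Prol was -0.01 and became 0.00109 with DESeq2 and 0.00124 with RLE scaling. With no limit on fold change, 8 members were called in Sen(IR) against Prol and 7 in CTPI2 against Prol. A limit of 1 left 2 called in each of the 3 comparisons of UK5099, and the unadjusted p called 1, FOSB, with CTPI2 against Sen(IR). Of the listed genes, 57, 41, 4 and 39 were called in the first 4 comparisons. A limit of 1 gave 34 in Sen(IR) against Prol, 1 with CTPI2 and 25 in UK5099 against CTPI2. No limit gave 70 for UK5099 against Sen(IR) and 64 for UK5099 against CTPI2, and the unadjusted p gave 7 with CTPI2. With the longest transcript as gene length, JUN held 48.6% of its family in Sen(IR), 54.1% with UK5099 and 50.3% with CTPI2. Leaving out each library in turn gave 3 to 3, 4 to 5, 0 to 0, 4 to 5, 4 to 5 and 2 to 2 members in the order above, and 55 to 61, 40 to 42, 3 to 4 and 36 to 40 listed genes. In those fits some differences that were not called changed sign. CEBPD ran from -0.0746 to 0.0510 with UK5099, -0.0923 to 0.0333 with CTPI2 and -0.0141 to 0.0382 between the inhibitors. With CTPI2, FOSL1 ran from -0.18 to 0.0431 and CEBPB from -0.0192 to 0.0371. FOSB ran from -0.49 to 0.0554 between the inhibitors, and against Prol from -0.21 to 0.21 with UK5099 and -0.00565 to 0.47 with CTPI2. JUN ran from -0.0560 to 0.0346 in CTPI2 against Prol. Deviations from the group mean gave r of -0.18 to 0.11 over 18 pairs with the same replicate number (median 0.038, 2 over 0.1). Over 36 pairs with different numbers r was -0.16 to 0.31 (median -0.025, 3 over 0.1). With groups of 3 centred on their means, these values cannot decide whether the libraries are paired. A replicate block left the numbers of members called at 3, 5, 0 and 5, with CEBPD at 0.00183 in UK5099 against Sen(IR). The cause of these shifts was not tested. Depth limits FOS, FOSB and CEBPA most, at 11 to 128, 14 to 36 and 0 to 7 counts per library.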

Other observations

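Over the 10987 tested genes with a RefSeq promoter entry, the share called lower with UK5099 was set beside the letters TATAAA within 250 bases before to 50 after the start. In UK5099 against Sen(IR), 204 of 981 genes with TATAAA were called lower (20.8%) and 1110 of 10006 genes without it (11.1%), and 9.28% and 8.13% were called higher. In Sen(IR) against Prol, 22.8% of genes with TATAAA and 24.2% of those without were called lower, and 29.8% and 23.9% higher. For the GC box GGGCGG in UK5099 against Sen(IR), 10.6% of the 8314 genes that held it were called lower and 16.3% of the 2673 that did not. Other motifs gave similar or opposite gaps in that comparison. The serum response element had 21.3% called lower with it (178 genes) and 11.8% without, the AP-1 letters 17.5% (565 genes) and 11.7%, and the shorter TATAA 18.6% and 10.7%. For TGACG, which 7 of the 8 member promoters searched hold, the shares were 10.1% with and 13.2% without. The NF-kB site (13.2% and 11.7%), CCAAT (12.5% and 11.5%), the C/EBP letters (11.3% and 11.96%) and TGACGTCA (10.9% and 12.002%) gave gaps of under 2 percentage points. The C/EBP letters were held by only 62 genes and TGACGTCA by 414, so their shares are imprecise. These shares were computed after the members' promoters had been seen and carry no test, and a promoter can hold several motifs.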
